A study of Mus musculus with 12 samples.

Results

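The genes described here are 35 that make ribosomes: parts of the small nucleolar ribonucleoproteins, nucleolar chaperones, RNA polymerase I and its factors, and assembly factors of the small and large ribosomal subunits. They were chosen by gene symbol, and all 35 were found in both deposited count tables, among 17260 genes in one and 17325 in the other. RNA came from the left ventricle of male mice, and the 12 libraries formed 4 groups of 3. The mCKO mice carried floxed Ddx5 and MYH6Cre (DDX5fl/fl MYH6Cre+), were 8 weeks old and were untreated; their controls, CTR1, were untreated Ddx5flox/flox mice of that age. The iCKO mice carried Ddx5flox/flox and Myh6MerCreMer, a Cre that tamoxifen switches on, and CTR2 were Ddx5flox/flox mice given tamoxifen too. Both tamoxifen groups were injected intraperitoneally with 20 mg/kg/day for 5 consecutive days, and the series' design text places collection of iCKO tissue after 7 days of tamoxifen injection. The sample labels give no age in weeks for iCKO or CTR2. Myh6 drives Cre in cardiomyocytes, so other heart cells keep Ddx5, and as neither control group is labelled with a Cre, what Cre alone does and what losing Ddx5 does cannot be told apart. The labels do not say whether the 3 libraries of a group came from separate mice, so the p-values here measure spread among these libraries only, which may be technical.

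Ribosomes are assembled in the nucleolus. RNA polymerase I copies the ribosomal DNA into a long precursor, small nucleolar RNAs with their proteins guide its modification and cleavage, and assembly factors fold and trim the particles until the subunits leave the nucleus. In the heart this pathway is known to rise when cardiomyocytes enlarge under load, and it is active in dividing cells. DDX5 is a DEAD-box RNA helicase that takes part in splicing and transcription and has been placed in ribosomal RNA processing. The libraries were made from polyadenylated RNA, so they report the messages of these factors and not ribosomal RNA or free small nucleolar RNA.

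Ddx5 itself, measured in CPM, counts scaled to the TMM-adjusted size of each library, lay between 218 and 233 in mCKO against 397 to 636 in CTR1, and between 192 and 219 in iCKO against 566 to 697 in CTR2. In iCKO its log2 fold change was -1.57 (adjusted p = 1.7e-04). In mCKO it was -1.29 and not called by the fit without pairing (adjusted p = 0.17), while DESeq2 (-1.30, adjusted p = 1.4e-06) and the fit with replicate number as a block (-1.26, adjusted p = 0.00192) called it. Library totals ranged from 19682268 to 25871882 counts. Every one of the 35 genes passed the filter on low counts in each fit, and the lowest count of any of them in a library was 186. Replicate 3 stood apart in both mCKO and CTR1, and replicate 3 of CTR1 held the low Ddx5 value of 397 CPM. Fold changes are edgeR quasi-likelihood estimates in log2 with their standard error after ±, adjusted p-values are Benjamini-Hochberg values over all genes tested, and a gene is called where that value is under 0.05.

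The promoters of 4 members show what the start of these genes looks like: Nhp2, which rose most in iCKO among members with an entry, Rrn3 and Nop2, which hold both motifs marked here, and Polr1a, the member whose iCKO libraries all lay below CTR2. Sequences are RefSeq windows on GRCm38.p6 from 250 bases before to 50 after the start site, read 5′ to 3′. Capitals mark the MYC-type E-box CACGTG and the ETS core CCGGAAG, either strand.
Nhp2, chr11:51619523-51619822, plus strand: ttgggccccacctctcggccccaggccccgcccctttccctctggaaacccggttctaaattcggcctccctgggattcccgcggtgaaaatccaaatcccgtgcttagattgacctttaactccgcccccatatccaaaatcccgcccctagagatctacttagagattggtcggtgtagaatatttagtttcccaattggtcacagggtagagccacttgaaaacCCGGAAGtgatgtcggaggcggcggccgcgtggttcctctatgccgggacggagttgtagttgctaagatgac
Rrn3, chr16:13780449-13780748, plus strand: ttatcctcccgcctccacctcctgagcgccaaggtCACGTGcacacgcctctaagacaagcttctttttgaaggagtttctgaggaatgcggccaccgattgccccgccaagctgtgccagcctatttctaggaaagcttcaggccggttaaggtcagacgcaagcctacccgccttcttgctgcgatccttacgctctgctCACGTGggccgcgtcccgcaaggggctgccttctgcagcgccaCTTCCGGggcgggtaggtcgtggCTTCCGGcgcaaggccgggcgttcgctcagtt
Nop2, chr6:125131633-125131932, plus strand: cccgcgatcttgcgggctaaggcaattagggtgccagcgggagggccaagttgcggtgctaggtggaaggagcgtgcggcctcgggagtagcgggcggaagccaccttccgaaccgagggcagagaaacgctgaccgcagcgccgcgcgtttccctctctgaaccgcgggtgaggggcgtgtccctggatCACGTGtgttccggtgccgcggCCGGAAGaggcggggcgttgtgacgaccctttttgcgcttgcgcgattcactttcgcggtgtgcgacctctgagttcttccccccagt
Polr1a, chr6:71908803-71909102, plus strand: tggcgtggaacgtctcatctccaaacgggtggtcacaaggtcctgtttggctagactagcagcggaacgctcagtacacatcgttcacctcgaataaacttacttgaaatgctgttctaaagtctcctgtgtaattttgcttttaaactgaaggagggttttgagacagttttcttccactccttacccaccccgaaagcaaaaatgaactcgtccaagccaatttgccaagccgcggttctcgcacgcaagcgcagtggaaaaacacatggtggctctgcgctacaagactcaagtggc

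Of the 35 members, 29 had a window in the RefSeq promoter table. Fbl, Npm1, Bop1, Rrp12, Rrs1 and Tcof1 had none. The E-box was present in 5 of 29 members, or 17.2%: Nop2, Pes1, Wdr43, Rrn3 and Mybbp1a. Among all 10748 tested genes with a window of the same length the share was 11.5%, and among 79 other genes of the pathway it was 24.1%. Rrn3 held 2 copies, starting 215 and 48 bases before the start site, and Nop2 held 1, starting 60 bases before it. The ETS core, on either strand, was present in 9 of 29 members, or 31%, against 19.1% of all genes and 46.8% of the other pathway genes. It was found in Nop2, Nhp2, Gar1, Nolc1, Polr1c, Rrn3, Noc2l, Noc3l and Nip7, and it shared no base with an E-box. The Polr1a window shown held neither, as was the case for most members with a window. Among these were Nop56, Nop58 and Nop16, called higher in iCKO, and Rrp1 and Ubtf, not called there. Of 7 motifs searched on both strands, the E-box and the ETS core are marked. The NRF1 motif was present in 17.2% of members against 10.9% of all genes, the CCAAT box (CCAAT) in 34.5% against 42.7%, and the TATA box (TATAAA) in 6.9% against 9.19%. A CG-rich palindrome and the YY1 motif were present in 0 members, against 1.07% and 1.67% of all genes. These matches are letters in a window and describe no binding.

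Tamoxifen-induced deletion of Ddx5 was accompanied by a broad rise of the pathway. In iCKO against CTR2, 23 of the 35 genes were called higher and 0 lower, where 25.2% of all 13548 tested genes were called higher and 19.5% lower. The genes that rose most were Rrp12, at 4.23 times its control level, Nhp2, Nop58, Nop16 and Fbl. Summed over the 35, the level was 1598 to 1849 CPM in the CTR2 libraries and 2507 to 2929 CPM in the iCKO libraries, with no overlap. The median log2 fold change of the 35 was 0.57, against 0.03 over all tested genes, and 32 of 35 values were positive. In 28 of 35 genes every iCKO library lay above every CTR2 library, a pattern found in 31.9% of all tested genes, and in 1, Polr1a, every iCKO library lay below, as in 27% of all genes. A 2-fold rise that was also called was seen for 7 of 35, against 15% of all genes.

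**Figure D1:**
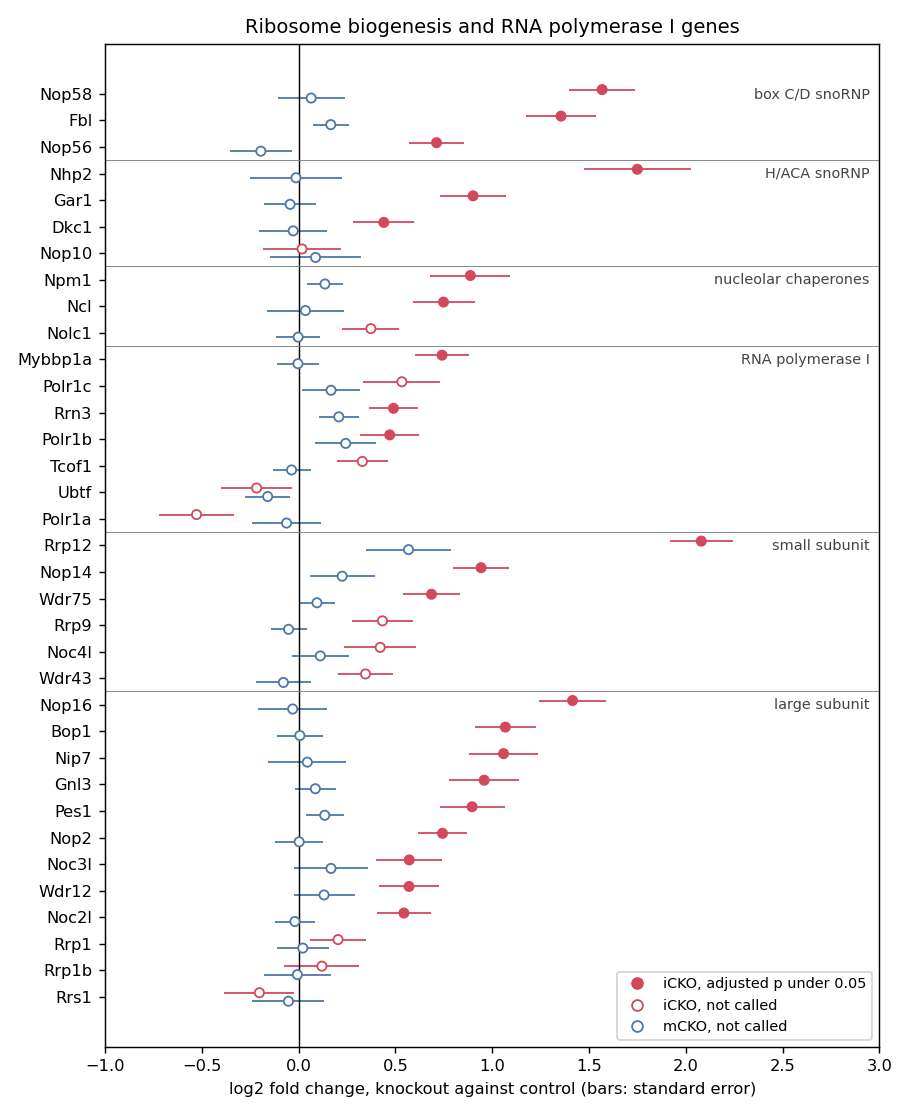
Log2 fold change (horizontal axis) of each of the 35 genes (vertical axis, grouped by role), iCKO against CTR2 in red and mCKO against CTR1 in blue, with standard errors as bars and filled points for adjusted p under 0.05. The 23 filled points are all red and all right of 0, while the blue points run from -0.19 to 0.57 and none is filled.

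Scaling bears on these values. TMM assumes that most genes do not change, and with library sizes alone the iCKO median of all genes moved from 0.03 to 0.24 and that of the 35 from 0.57 to 0.79. Of the 23 calls, 17 held under each of the 13 alternatives run, leaving out each library among them, and the other 6 are named with their groups below.

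The core proteins of the box C/D particles, which carry the small nucleolar RNAs that guide ribose methylation, rose as a set: 3 of 3 were called higher. Fbl, the methyltransferase itself, read 27.6, 22.3 and 24.3 CPM in the CTR2 libraries and 54.8, 57.3 and 77.7 CPM in iCKO. Its log2 fold change was 1.36 ± 0.18 (adjusted p = 6.5e-04). Nop58, a scaffold of the particle, went from 19.9, 23.3 and 22.0 CPM to 57.5, 57.9 and 77.9 CPM, a change of 1.57 ± 0.17 (adjusted p = 2.8e-04). All 3 iCKO libraries exceeded the highest control for both genes, with replicate 3 the highest. Nop56, the partner scaffold, rose less, from 30.9, 31.5 and 30.1 CPM to 47.8, 46.9 and 56.9 CPM (0.71 ± 0.14, adjusted p = 0.0039). Its iCKO libraries too lay wholly above CTR2.

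The H/ACA particles guide pseudouridylation, and 3 of their 4 proteins were called higher, against 25.2% of all tested genes. Nhp2, which binds the guide RNA with its partners, read 13.8, 16.5 and 14.03 CPM in CTR2 and 35.8, 39.9 and 73.4 CPM in iCKO (1.75 ± 0.28, adjusted p = 0.00146). Replicate 3 stood well above the other two iCKO libraries, and without it the log2 fold change was 1.32 and still called. Gar1 read 9.97, 9.04 and 9.79 CPM in CTR2 and 15.5, 17.4 and 20.9 CPM in iCKO (0.90 ± 0.17, adjusted p = 0.00329). Dkc1, the pseudouridine synthase dyskerin, changed least among the called members, from 20.6, 18.03 and 22.0 CPM to 29.7, 28.7 and 24.0 CPM (0.44 ± 0.16, adjusted p = 0.0491). The groups did not overlap, but the Dkc1 call was lost when any of 5 of the 6 libraries was left out (all but iCKO replicate 3), with adjusted p up to 0.142. Nop10, the smallest protein of the particle, read 54.2, 46.4 and 47.4 CPM in CTR2 and 43.6, 40.4 and 65.9 CPM in iCKO (0.02 ± 0.20, adjusted p = 0.949). Its groups overlapped, with only iCKO replicate 3 above the controls.

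Among the nucleolar chaperones 2 of 3 were called higher, against 25.2% of all tested genes. Ncl, nucleolin, an RNA-binding protein of the nucleolus, read 280, 338 and 284 CPM in CTR2 and 454, 487 and 574 CPM in iCKO (0.75 ± 0.16, adjusted p = 0.0059). Npm1, nucleophosmin, went from 139, 178 and 139 CPM to 230, 254 and 358 CPM (0.89 ± 0.21, adjusted p = 0.00873), and without iCKO replicate 3 the change was 0.64 and still called. Npm1 has processed pseudogenes in the mouse genome, and how reads that match several places were counted is not given in the sources used here. Nolc1, which accompanies small nucleolar particles, read 38.6, 47.9 and 37.5 CPM in CTR2 and 52.0, 55.8 and 52.8 CPM in iCKO, a separation that missed the threshold (0.37 ± 0.15, adjusted p = 0.067). Without CTR2 replicate 2, the high control, Nolc1 was called (0.49, adjusted p = 0.0327).

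RNA polymerase I and its factors did not move one way. Of 7 genes 3 were called higher, Mybbp1a, Rrn3 and Polr1b, where 25.2% of all tested genes were. The catalytic subunit Polr1a had a negative value. Mybbp1a, a nucleolar protein found with the polymerase, read 94.0, 111 and 92.1 CPM in CTR2 and 163, 163 and 171 CPM in iCKO (0.74 ± 0.14, adjusted p = 0.00338). Rrn3, the initiation factor that makes the polymerase competent to start, went from 77.9, 72.3 and 75.0 CPM to 107, 108 and 102 CPM (0.49 ± 0.13, adjusted p = 0.0139). The spread of Rrn3 within each group was small and the groups stood well apart, though its adjusted p was 0.0555 without iCKO replicate 2 and 0.069 without CTR2 replicate 3.

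Polr1b, the second of the 2 large subunits, read 21.3, 21.9 and 20.8 CPM in CTR2 and 33.9, 29.1 and 25.8 CPM in iCKO (0.47 ± 0.15, adjusted p = 0.0347). Its call was lost when any library other than iCKO replicate 3 was left out, with adjusted p up to 0.128. Polr1a, the largest subunit, which forms the active site, read 117, 120 and 99.5 CPM in CTR2 and 94.0, 81.3 and 58.0 CPM in iCKO (-0.53 ± 0.19, adjusted p = 0.0555). No Polr1a library of iCKO reached the lowest control by TMM scaling, whereas the groups overlapped with library sizes alone. It was called lower with DESeq2 (adjusted p = 0.0189), with RLE factors (0.0379), without iCKO replicate 1 (0.0272) and without iCKO replicate 3 (0.0279). An antisense gene, Gm26628, covers 185 bases of Polr1a exon, and whether counting used the strand is not given in the sources used here.

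Polr1c, a subunit shared with RNA polymerase III, read 13.7, 19.4 and 13.7 CPM in CTR2 and 20.1, 21.0 and 26.6 CPM in iCKO (0.53 ± 0.20, adjusted p = 0.0566). Without CTR2 replicate 2, the high control, Polr1c was called (0.72, adjusted p = 0.0223). Ubtf, the factor that opens ribosomal DNA for transcription, read 89.5, 134 and 91.8 CPM in CTR2 and 92.9, 90.8 and 87.9 CPM in iCKO (-0.22 ± 0.18, adjusted p = 0.36). The Ubtf groups overlapped and CTR2 replicate 2 alone was high; with library sizes and a replicate block its sign turned, to 0.02. Tcof1, treacle, which links the polymerase to processing, read 27.9, 26.6 and 27.4 CPM in CTR2 and 35.3, 35.3 and 32.2 CPM in iCKO (0.33 ± 0.13, adjusted p = 0.0698), with no overlap but no call. Without iCKO replicate 3 Tcof1 was called (0.33, adjusted p = 0.0284).

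**Figure D2:**
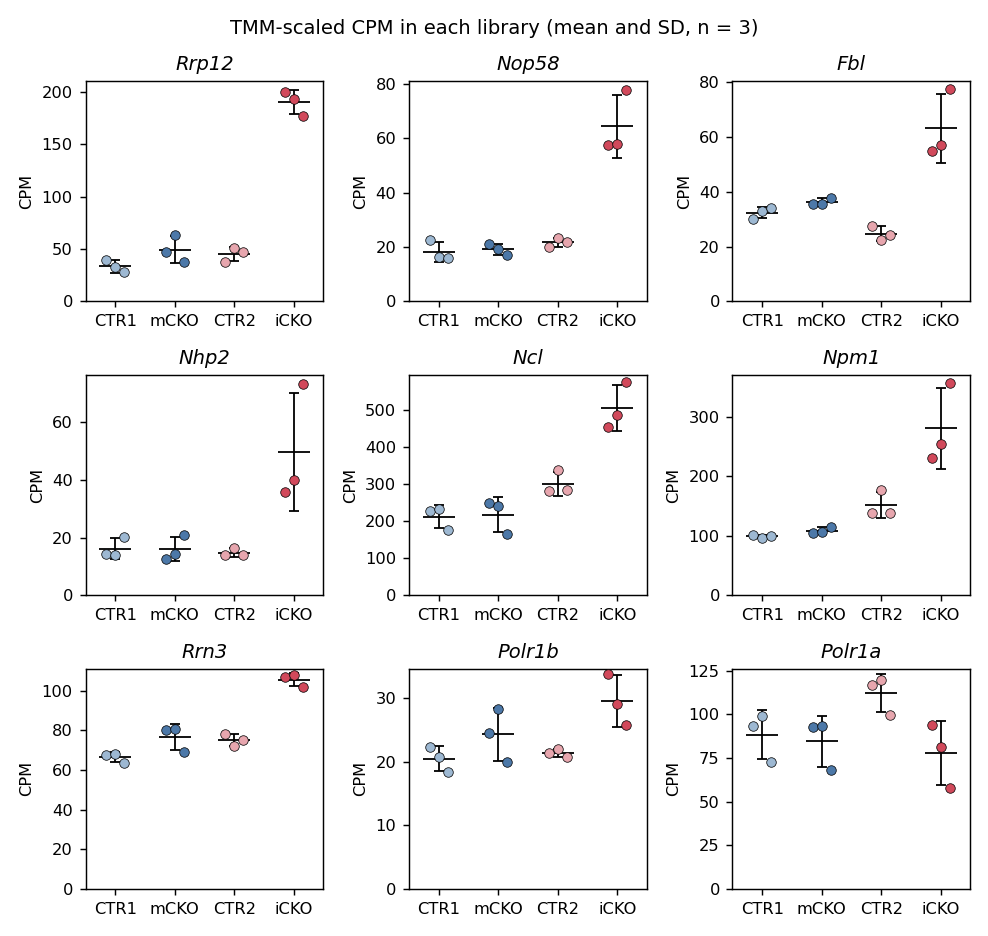
TMM-scaled CPM (vertical axis) of 9 members in the libraries of each of the 4 groups (horizontal axis), with a point per library and the group mean and SD. Rrp12 lies between 177 and 199.9 CPM in iCKO and at most at 63.0 CPM elsewhere, while the Polr1a points of iCKO all lie below those of CTR2.

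Of the 6 small subunit factors 3 were called higher, against 25.2% of all tested genes. Rrp12 acts late, in export of the precursor particles, and lies at chr19:41862851-41896173 on the minus strand (GRCm38). It read 37.4, 50.7 and 47.0 CPM in CTR2 and 199.9, 194 and 177 CPM in iCKO (2.08 ± 0.16, adjusted p = 8.5e-05). The lowest iCKO library was thus far above the highest control, and Rrp12 had the largest change of the 35. Nop14, which takes part in early assembly around the U3 particle, went from 24.4, 25.99 and 27.9 CPM to 46.9, 47.1 and 56.5 CPM (0.94 ± 0.14, adjusted p = 0.00124). Wdr75, a scaffold repeat protein of the processome that is also needed for ribosomal DNA transcription, read 19.3, 24.8 and 23.1 CPM in CTR2 and 35.9, 36.7 and 35.6 CPM in iCKO (0.69 ± 0.15, adjusted p = 0.00608). Both genes had every iCKO library above CTR2. Rrp9, a protein of the U3 particle, was just outside the threshold (0.43 ± 0.16, adjusted p = 0.0505), and without CTR2 replicate 2 it was inside (adjusted p = 0.0494). Its CTR2 libraries lay between 17.5 and 20.9 CPM and its iCKO libraries between 22.7 and 28.4 CPM. Wdr43, another processome scaffold, had a value of 0.35 ± 0.14 (adjusted p = 0.0765), at 32.0 to 40.6 CPM in CTR2 and 46.0 to 47.6 CPM in iCKO. Noc4l, an assembly factor that works with Nop14, had 0.42 ± 0.19 (adjusted p = 0.0956) and overlapping groups, 15.3 to 21.1 CPM and 19.9 to 26.5 CPM. Without CTR2 replicate 2 Noc4l was called (0.57, adjusted p = 0.0446).

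Of the 12 large subunit factors 9 were called higher and 0 lower, against 25.2% and 19.5% of all tested genes. Nop16 read 12.6, 11.5 and 12.4 CPM in CTR2 and 28.9, 29.4 and 39.1 CPM in iCKO (1.42 ± 0.17, adjusted p = 4.1e-04). The PeBoW complex, needed to process the precursor of the large subunit RNA, was called in all 3 of its proteins. Bop1 went from 31.4, 35.03 and 35.8 CPM to 63.4, 66.7 and 84.2 CPM (1.07 ± 0.16, adjusted p = 0.00103), and Pes1 from 44.3, 49.1 and 40.8 CPM to 72.9, 76.5 and 100.4 CPM (0.90 ± 0.17, adjusted p = 0.00327). Wdr12, the third partner, had the smaller change, from 19.2, 19.0 and 16.9 CPM to 24.3, 26.6 and 31.0 CPM (0.57 ± 0.16, adjusted p = 0.0171). In all 3 genes the iCKO libraries lay above the controls, but the Wdr12 call was lost without CTR2 replicate 3 (adjusted p = 0.0862).

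Nip7, which joins the late precursor particle, read 17.2, 18.2 and 16.7 CPM in CTR2 and 32.3, 31.2 and 44.9 CPM in iCKO (1.06 ± 0.18, adjusted p = 0.00202). Gnl3, nucleostemin, a nucleolar GTPase abundant in proliferating cells, went from 19.8, 27.5 and 22.5 CPM to 38.7, 44.1 and 53.1 CPM (0.96 ± 0.18, adjusted p = 0.00352). Nop2, a methyltransferase of the large subunit RNA, read 24.9, 26.7 and 24.8 CPM in CTR2 and 41.4, 43.0 and 43.5 CPM in iCKO (0.74 ± 0.13, adjusted p = 0.00218). None of these groups overlapped, and Nop2 varied little within either group. Noc2l and Noc3l, partners in complexes that carry the precursor through the nucleus, were also called. Noc2l read 45.2, 47.6 and 55.5 CPM in CTR2 and 69.5, 71.5 and 75.1 CPM in iCKO (0.54 ± 0.14, adjusted p = 0.0132), a call lost without CTR2 replicate 1 (adjusted p = 0.0675). Of its exon bases 20.9% overlap Samd11 on the other strand. Noc3l read 11.9, 10.1 and 12.4 CPM in CTR2 and 17.5, 19.0 and 14.7 CPM in iCKO (0.57 ± 0.17, adjusted p = 0.025), and its call held with iCKO replicate 3 left out and was lost without any 1 of the other libraries, with adjusted p up to 0.0957.

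The other 3 large subunit factors did not pass the test and their groups overlapped. Rrp1 had a log2 fold change of 0.20 ± 0.15 (adjusted p = 0.281), at 107 to 124 CPM in CTR2 and 120 to 145 CPM in iCKO. Its relative Rrp1b had 0.12 ± 0.19 (adjusted p = 0.637), at 11.3 to 16.5 CPM and 13.1 to 17.0 CPM. Rrs1, which helps to place the small RNA of the large subunit, had -0.20 ± 0.18 (adjusted p = 0.39), at 28.4 to 44.3 CPM and 30.1 to 32.0 CPM, and its sign turned with library sizes alone, to 0.0098.

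**Figure D3:**
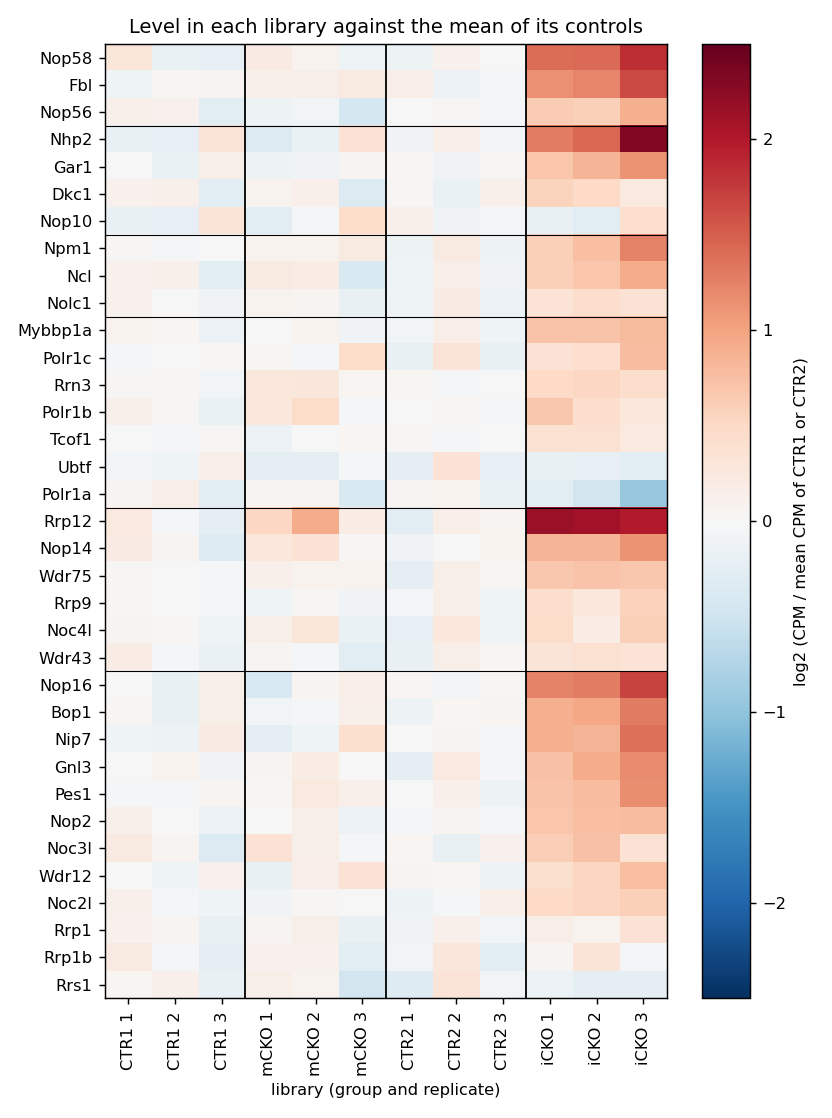
Log2 of each library's CPM over the mean of its own controls (colour) for the 35 genes (rows, grouped by role) in the 12 libraries (columns). The iCKO columns are red in most rows, most deeply for Rrp12 and Nhp2, and blue in all 3 for Polr1a. The mCKO columns are paler, with replicates 1 and 2 of Rrp12 the reddest of them.

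The iCKO libraries themselves differed. Replicate 3 lay above its group mean by a median of 0.24 on the log2 scale over the 35 genes, with 22 of them above, against 0.00 over all tested genes. Among the controls, CTR2 replicate 2 lay above its group mean by a median of 0.16, with 25 of the 35 above. Leaving out iCKO replicate 3 gave 24 of the 35 called higher and 1 lower, where 3495 of 13617 tested genes were called higher. Levels per length depend on the exon model, here the union of exons over a gene's annotated coding transcripts. In CTR2 the highest was Npm1, at 74.7 ± 11.04 CPM per kilobase of exon (SD, n = 3). Rrp1, Nop10 and Ncl followed at 57.3, 44.5 and 36.6, and the lowest was Wdr12 at 1.73. The models of Wdr12, Nop58 and Ncl were long, at 10.613, 9.539 and 8.202 kb, so the order of genes rests on these lengths too. Rrp12 and Nop58, which rose most along with Nhp2, stood at 10.4 and 2.28 CPM per kilobase in CTR2.

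In the mCKO hearts 0 of 35 genes were called against CTR1 in either direction, where 0% of 13353 tested genes were called at all. The deleted gene Ddx5 was itself not called by this fit, so 0 calls here do not show that the levels were alike. Of the 35, 1 had an unadjusted p under 0.05, DESeq2 called 0 of 35 as well, against 1.32% of all genes higher and 1% lower, and the smallest adjusted p of a member by edgeR was 0.535. The median log2 fold change was 0.02, against 0.01 for all genes, and the values ran from -0.19 for Nop56 to 0.57 for Rrp12. Summed over the 35, the level was 1411 to 1547 CPM in CTR1 and 1445 to 1619 CPM in mCKO, and the ranges overlapped.

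Same-numbered libraries of these groups deviated together, so the fit with replicate number as a block stands beside that result. It called 1 of 35 higher, Rrp12, and 0 lower, against 7.32% of all genes higher and 6.45% lower. Only replicate 3 was matched distinctly by its number, with a correlation of deviations of 0.823. For mCKO replicate 1 the correlation was 0.464 with CTR1 replicate 1 and 0.553 with CTR1 replicate 2. For mCKO replicate 2 these values were 0.529 and 0.532. Comparisons within pairs 1 and 2 thus rest on the sample numbers alone. With the block 7 of 35 had an unadjusted p under 0.05, against 1 without it. Rrp12 read 39.6, 32.4 and 28.04 CPM in CTR1 and 47.5, 63.0 and 37.8 CPM in mCKO. The groups overlapped, since mCKO replicate 3 lay below CTR1 replicate 1, while each mCKO library exceeded the CTR1 library of its own number. The log2 fold change was 0.57 ± 0.22 without the block (adjusted p = 0.535) and 0.55 with it (adjusted p = 0.037), and 0.35 without mCKO replicate 2, with no block and no call. With replicate 3 of both groups left out, 0 of 35 were called, against 3.85% of all genes higher and 3.94% lower.

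In 4 genes all mCKO libraries lay above all CTR1 libraries (Fbl, Npm1, Rrn3 and Wdr75), or 4 of 35 where 7.69% of all genes did so, and in 0 they lay below, as 7.3% of genes did. Fbl read 30.2, 33.0 and 33.9 CPM in CTR1 and 35.4, 35.7 and 37.8 CPM in mCKO (0.17 ± 0.09, adjusted p = 0.742). Npm1 read 101, 96.7 and 99.1 CPM and then 105, 106 and 115 CPM (0.14 ± 0.09, adjusted p = 0.804). Rrn3 read 67.5, 68.2 and 63.4 CPM and then 80.2, 80.7 and 69.0 CPM (0.21 ± 0.10, adjusted p = 0.661). These separations were narrow beside those of iCKO, and the Wdr75 values are given with the small subunit factors below.

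For the other core proteins of box C/D particles the groups overlapped. Nop56 read 36.1, 35.6 and 27.3 CPM in CTR1 and 30.4, 31.7 and 24.4 CPM in mCKO (-0.19 ± 0.16, adjusted p = 0.876), with replicate 3 the lowest in both. Nop58 read 22.5, 16.3 and 15.9 CPM and then 21.0, 19.4 and 16.9 CPM (0.06 ± 0.17, adjusted p = 0.986). Nucleolin showed the same low replicate 3: Ncl read 227, 233 and 176 CPM in CTR1 and 248, 240 and 164 CPM in mCKO (0.04 ± 0.20, adjusted p = 0.995).

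The polymerase genes overlapped too. Polr1a read 93.2, 99.2 and 72.7 CPM in CTR1 and 92.9, 93.2 and 67.9 CPM in mCKO (-0.06 ± 0.18, adjusted p = 0.986; 0.013 with library sizes alone). Polr1b read 22.4, 20.8 and 18.4 CPM and then 24.6, 28.3 and 20.0 CPM (0.24 ± 0.16, adjusted p = 0.793). Replicate 3 was again the lowest library of its group for both genes. Polr1c read 18.9, 19.5 and 20.4 CPM and then 20.2, 19.0 and 26.8 CPM (0.17 ± 0.15, adjusted p = 0.895), here with mCKO replicate 3 high. Ubtf read 83.0, 80.8 and 98.5 CPM and then 74.9, 74.7 and 85.2 CPM (-0.16 ± 0.12, adjusted p = 0.841). Genes of 1 pathway thus differed in which way replicate 3 deviated. Within the pairs of equal number, Nop56, Ubtf and Polr1a were lower in mCKO in all 3 pairs and Polr1b was higher in all 3. With the block their log2 fold changes were -0.19 (adjusted p = 0.112), -0.16 (0.119), -0.06 (0.544) and 0.23 (0.127), none called. Wdr43, a small subunit factor, was also lower in mCKO in all 3 pairs (-0.08 with the block, adjusted p = 0.556). How many of all genes keep 1 sign in all 3 pairs is not given, so such agreement sets no member apart, here or below.

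The other members called in iCKO had overlapping levels in CTR1 and mCKO, apart from Wdr75. Among the H/ACA proteins Nhp2 read 14.2, 13.9 and 20.2 CPM in CTR1 and 12.7, 14.4 and 20.7 CPM in mCKO, with replicate 3 the highest of both groups. Gar1 read 11.6, 10.3 and 12.9 CPM and then 10.6, 11.01 and 12.2 CPM. Dkc1 read 24.3, 24.9 and 18.7 CPM and then 23.9, 24.8 and 17.9 CPM. Replicate 3 was thus the highest library of each group for Nhp2 and Gar1 and the lowest for Dkc1. Dkc1 was lower in mCKO in all 3 pairs of equal number and was not called with the block (adjusted p = 0.85).

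Mybbp1a, with the polymerase, read 98.2, 94.9 and 83.02 CPM in CTR1 and 90.99, 97.8 and 86.8 CPM in mCKO. Of the small subunit factors, Nop14 read 24.99, 22.9 and 17.4 CPM in CTR1 and 26.1, 27.996 and 22.2 CPM in mCKO. Wdr75 read 19.3, 18.7 and 18.6 CPM and then 20.5, 20.004 and 19.95 CPM. Each Nop14 library of mCKO exceeded the CTR1 library of its number, though the groups overlapped. Wdr75 did not overlap, by a narrow margin.

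Of the large subunit factors, Nop16 read 14.8, 13.004 and 16.4 CPM in CTR1 and 11.3, 15.4 and 16.5 CPM in mCKO. In the PeBoW complex Bop1 read 37.8, 32.7 and 41.1 CPM and then 35.4, 36.1 and 40.6 CPM. Pes1 read 44.2, 43.2 and 47.4 CPM and then 46.04, 53.1 and 48.97 CPM, and the third partner Wdr12 read 18.2, 16.9 and 19.5 CPM and then 16.1, 20.4 and 23.3 CPM. The ranges of these 4 overlapped, and replicate 3 was the highest of its group for each but Pes1 in mCKO. Nip7 read 16.6, 16.3 and 20.8 CPM in CTR1 and 15.1, 16.6 and 23.7 CPM in mCKO, with replicate 3 high in both. Gnl3 read 19.2, 20.6 and 18.1 CPM and then 20.3, 21.8 and 19.3 CPM. Nop2 read 25.1, 23.2 and 20.8 CPM and then 22.9, 25.4 and 20.96 CPM. In these 3 genes too the groups overlapped. Noc2l read 55.4, 49.5 and 46.5 CPM in CTR1 and 47.3, 51.5 and 50.7 CPM in mCKO. Noc3l read 12.9, 11.5 and 8.62 CPM and then 14.1, 12.2 and 10.8 CPM. Pes1, Gnl3 and Noc3l were higher in mCKO in all 3 pairs of equal number, and none was called with the block (adjusted p = 0.269, 0.562 and 0.327).

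**Figure D4:**
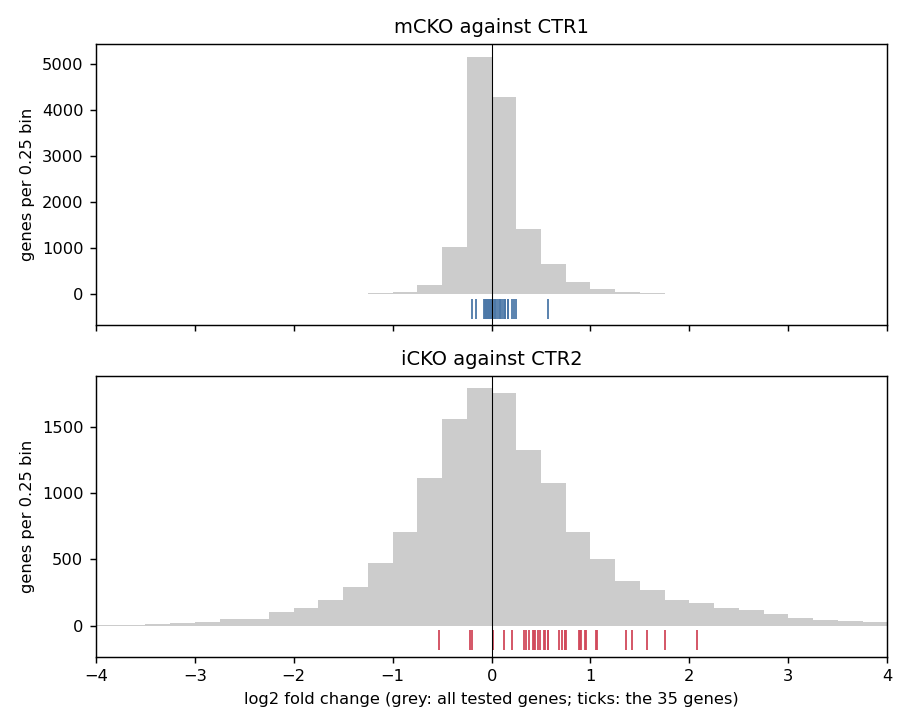
Number of tested genes per bin of log2 fold change (grey bars; genes outside the drawn range are not shown) with the 35 genes as ticks, for mCKO above and iCKO below. The iCKO ticks have a median of 0.57 where all genes have 0.03, while the mCKO ticks sit around 0.02 with Rrp12 alone at 0.57.

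The difference between the models was tested directly, as the change in mCKO minus the change in iCKO. It was called for 15 of 35 genes, all lower, that is with less of a rise in mCKO, against 9.88% of all 13871 tested genes called lower and 11% called higher. All 15 are among the 23 called in iCKO, whose libraries the contrast uses too. The greatest differences were -1.74 ± 0.41 for Nhp2 (adjusted p = 0.0112), -1.47 ± 0.26 for Nop58 (adjusted p = 0.00254) and -1.47 ± 0.27 for Rrp12 (adjusted p = 0.00351). For Ncl the difference was -0.68 ± 0.27 (adjusted p = 0.091), and it was called with the replicate block (-0.69, adjusted p = 0.0276) and by DESeq2 (0.0471). Nop14 had -0.68 (adjusted p = 0.0528) and was likewise called with the block (-0.67, adjusted p = 0.0177) and by DESeq2 (0.0211). Npm1 had -0.72 ± 0.25 (adjusted p = 0.0608) and was called by DESeq2 (0.0241) but not with the block. The difference was for Rrn3 -0.25 ± 0.15 (adjusted p = 0.264) and for Polr1b -0.19 ± 0.21 (adjusted p = 0.56), so for these 2 the models were not shown to differ. No polymerase gene other than Mybbp1a (-0.71 ± 0.17, adjusted p = 0.0135) was called by the fit without the block. Polr1a had 0.51 ± 0.27 (adjusted p = 0.197), and with the replicate block it was called (0.52, adjusted p = 0.0416). Tcof1 had -0.33 ± 0.15 (adjusted p = 0.132) and was called by DESeq2 (-0.35, adjusted p = 0.0455) but not with the block. The median over the 35 was -0.53, against 0.03 for all genes. The models also differ in the form of Cre, in tamoxifen and in the time since deletion, and each had its own controls and count table. Age may differ too, as none is given for iCKO and CTR2. These differences cannot be told apart here.

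Beyond the 35, other genes of the pathway, from lists chosen with earlier results of these data known, were counted in the same iCKO fit, and the share called differed between the lists. Of 38 other small subunit factors 25 were called higher and 0 lower, with a median log2 fold change of 0.56. Wdr46 read 14.3, 14.4 and 13.1 CPM in CTR2 and 30.0, 31.7 and 42.6 CPM in iCKO (1.32 ± 0.18, adjusted p = 6.7e-04), and Tsr1 (1.06 ± 0.16) and Utp18 (1.10 ± 0.17) followed. Of 34 other large subunit factors 23 were called higher and 0 lower, with a median of 0.66, led by Nifk (1.31 ± 0.17), Mak16 (0.96 ± 0.14) and Ftsj3 (1.03 ± 0.15). Of 13 exosome and ribosomal RNA trimming genes 5 were higher and 0 lower, with a median of 0.28, among them Dis3, a catalytic subunit (1.06 ± 0.15), Exosc2 (0.83 ± 0.17) and Exosc9 (0.73 ± 0.19). Exosc9 lost its call without CTR2 replicate 1 (adjusted p = 0.0551) or without CTR2 replicate 3 (0.0588). The shares over all genes are those given above, 25.2% higher and 19.5% lower.

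The remaining RNA polymerase I subunits and promoter factors again went both ways, with 2 of 11 called higher and 1 lower. Taf1a, a subunit of the promoter selectivity factor SL1, read 26.2, 25.4 and 26.5 CPM in CTR2 and 12.1, 10.99 and 14.3 CPM in iCKO (-1.06 ± 0.16, adjusted p = 0.00104). Its libraries stood far apart, all iCKO below all CTR2. Taf1d (0.97 ± 0.23) and Taf1b (0.51 ± 0.16), subunits of the same factor, were higher, though Taf1b lost its call without any of iCKO replicates 1 and 2 and CTR2 replicates 1 and 3, with adjusted p up to 0.131. In mCKO 0 genes of these 4 lists were called without the block, as for all genes. With it, Polr1e, Wdr36, Utp18 and Nsa2 were higher and Las1l lower, a small part of the genes in these lists. Over all genes that fit called 7.32% higher and 6.45% lower.

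**Figure D5:**
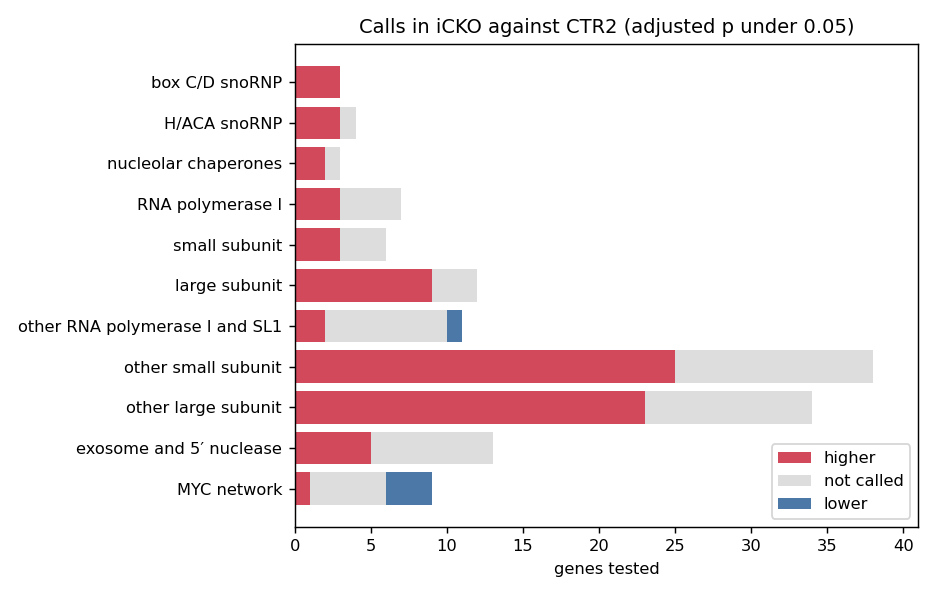
Number of genes tested (horizontal axis) in the 6 roles of the 35 genes and in 5 further lists (vertical axis), split into those called higher (red), lower (blue) or not called (grey) in iCKO against CTR2. No list of subunit assembly factors holds a blue stretch, while the other RNA polymerase I and SL1 list holds 1 lower gene and the MYC network list 3.

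MYC is a transcription factor known to drive ribosome production through E-boxes. Myc read 2.53, 6.87 and 3.67 CPM in CTR2 and 20.6, 27.0 and 20.8 CPM in iCKO (2.38 ± 0.34, adjusted p = 8.8e-04), a fold of 5.22 with no overlap. In CTR1 it read 2.93, 2.04 and 5.93 CPM and in mCKO 2.94, 3.57 and 6.17 CPM (0.22 ± 0.47, adjusted p = 0.983). Of the 9 tested genes of its network, Myc alone was higher in iCKO and 3 were lower: Mxi1 (-1.09 ± 0.16), Max (-1.07 ± 0.25) and Mxd4 (-0.50 ± 0.14). The shares over all tested genes were 25.2% higher and 19.5% lower. Mxi1 and Mxd4 code for proteins that compete with MYC for MAX, the partner of both. The Mxd4 call was lost without iCKO replicate 2 (adjusted p = 0.0643), without CTR2 replicate 3 (0.094) and with library sizes alone (0.116). Of 5 members with an E-box in their window 4 were called higher in iCKO, and of 24 without one 15 were. Over all tested genes with a window the median log2 fold change in iCKO was 0.049 with an E-box and 0.019 without. Whether MYC had a part in the rise of the pathway was not tested.

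Cell type markers changed in iCKO too, some upward and some downward. Over all tested genes 25.2% were called higher and 19.5% lower in this comparison. Of 14 macrophage and monocyte markers 12 were called higher, and their summed level went from 436 to 591 CPM in CTR2 to 1111 to 2160 CPM in iCKO. All 10 markers of cycling cells were higher, with sums of 14.1 to 22.8 CPM and 58.6 to 129 CPM. Among them Top2a, Mcm5 and Cdk1 had log2 fold changes of 2.93 ± 0.37, 2.22 ± 0.23 and 3.65 ± 0.51. Of 10 fibroblast markers 5 were higher and 2 lower, with sums of 2213 to 2736 CPM and 3924 to 5687 CPM. Of 10 endothelial markers 5 were lower (2009 to 2268 CPM against 1425 to 1623 CPM), and of 10 cardiomyocyte markers 8 were lower (118434 to 130408 CPM against 56756 to 69562 CPM), so the tissue label held in each group by these abundant messages. No marker was at 0 in every library of a group.

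In mCKO, macrophage sums overlapped (593 to 868 CPM in CTR1, 784 to 1409 CPM in mCKO), as did those of cycling cells (8.95 to 20.7 and 12.3 to 32.3 CPM), fibroblasts (2723 to 4120 and 2904 to 4911 CPM), endothelial cells (1806 to 3419 and 1900 to 3297 CPM) and cardiomyocytes (91699 to 130364 and 75614 to 112940 CPM). None of these markers was called without the block. With it, 11 of 14 macrophage, 5 of 10 fibroblast and 1 of 8 tested cycling markers were higher and 6 of 10 cardiomyocyte markers lower. Over all genes the fit with the block called 7.32% higher and 6.45% lower. The part of these other cells in the results for the 35 genes was not tested, and in bulk tissue fewer cells of a type and less RNA per cell cannot be told apart.

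Features other than the levels were tallied too. Of them 29, or 82.9%, carry the Gene Ontology term nucleolus in the deposited tables, against 4.52% of all genes with terms; Gar1, Nop10, Nop56, Polr1a, Polr1c and Rrp1 do not. Introns of 6 members, or 17.1%, hold annotated small nucleolar RNA genes on the same strand in GENCODE M21, against 1.43% of 15908 protein-coding genes. These hosts are Nop56 with 5 such genes, Nop58 with 4, Ncl, Wdr43 and Gnl3 with 3 each and Dkc1 with 1. Of the 6 hosts all but Wdr43 were called higher in iCKO, where 23 of the 35 members and 25.2% of all tested genes were. Whether hosting such genes went with the rise was not tested.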

How the data were processed

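Left ventricles of 12 mouse samples were sequenced; groups and replicate numbers came from the sample titles. Per the labels' protocols, Trizol was used for extraction and a stranded TruSeq mRNA kit for the libraries. The submitters' processing notes name HISAT2, DESeq and the build GRCm38; for versions, counting tool, annotation and strand setting the entry is: not given in the sources used here. Raw whole-number counts per gene were deposited by the authors in 1 table for mCKO with CTR1 and another for iCKO with CTR2, which share 16673 genes.

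CPM and log2 fold changes were computed from those counts. Low genes were removed with filterByExpr (at least 10 counts, total of 15) and the rest fitted over the whole table with edgeR 4.0.16 quasi-likelihood tests (TMM, robust, two-sided) in R 4.3.3. Adjusted p-values are Benjamini-Hochberg values over all genes tested, called at 0.05. Each experiment was fitted alone, and the difference between models used all 12 libraries over the shared genes. The scripts were tested on simulated data.

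The same-number correlations of deviations from group means were 0.464, 0.532 and 0.823 for mCKO with CTR1, each over the limit set for pairing, so for this comparison and for the difference the block is printed where it changes the call of a member or Ddx5; libraries 1 and 2 correlated across numbers too, at 0.553 and 0.529. For iCKO with CTR2 they were 0.06, -0.09 and -0.16. Alternatives were the replicate block, DESeq2 1.42.0, RLE factors, library sizes alone, no filter, each library left out and replicate 3 left out of both groups.

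Exon lengths, overlaps and small nucleolar RNA genes came from GENCODE M21, and promoters from RefSeq. The members, lists and alternatives were chosen with earlier results of these data known. All members are named; values in every library are given for members called in any comparison and for Fbl, Ncl, Npm1, Nop56, Nop58, Polr1a, Polr1b, Polr1c, Ubtf and Rrn3. Of the other lists up to 3 called genes with the smallest adjusted p are named in each direction, and Myc; Nolc1, Nop10, Tcof1 and the genes called with the block in mCKO were added after their values were seen.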

Additional observations from a re-analysis of the deposited data

Results flagged for a closer look

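For 15 of the 35 genes the change in mCKO and the change in iCKO differed by the interaction test (edgeR quasi-likelihood, adjusted over all genes). The differences, mCKO minus iCKO in log2 fold change, were -1.74 for Nhp2, -1.47 for Rrp12, -1.47 for Nop58, -1.42 for Nop16, -1.16 for Fbl, -1.03 for Bop1 and -0.98 for Nip7. They were -0.91 for Gar1, -0.87 for Nop56, -0.84 for Gnl3, -0.73 for Pes1, -0.71 for Mybbp1a, -0.70 for Nop2, -0.55 for Wdr75 and -0.53 for Noc2l. Of the 15, 10 were called under each of the 19 alternatives run. The exceptions were Pes1 and Gnl3, both lost without mCKO replicate 1, Nip7, lost without mCKO replicate 1, without mCKO replicate 2 or without CTR2 replicate 3, and Wdr75 and Noc2l. Wdr75 was lost without CTR1 replicate 1, any 1 mCKO library, iCKO replicate 2 or CTR2 replicate 1. Noc2l was lost without CTR1 replicate 1 or 2, any 1 mCKO library, iCKO replicate 2 or 3, or CTR2 replicate 1 or 2. Gnl3 was also lost with replicate 3 of all groups left out.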

How the results depend on the processing

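In iCKO the count of the 35 called higher ran from 18 without CTR2 replicate 3 to 30 with library sizes alone (20 with the replicate block, in an experiment where the numbers were not shown to pair the samples). The count over all genes moved too, from 2425 of 13830 called higher without CTR2 replicate 3 to 4592 of 13548 with library sizes alone. The count of the 35 called lower was 0, and 1 (Polr1a) with the replicate block, DESeq2, RLE factors or replicate 3 left out of both groups. Leaving out 1 library gave 0 to 1 of the 35 called lower. In mCKO the count of the 35 called higher was 0, 1 with the replicate block and 6 with library sizes and the block, and 0 without any 1 library. Over all 13353 tested genes 978 were called higher with the block and 1581 with library sizes and the block. In the difference the count of the 35 called lower ran from 10 without mCKO replicate 1 to 22 with library sizes and the block. In those fits 2076 of 14071 and 4164 of 13871 tested genes were called in either direction. The count of the 35 called higher in the difference was 0, with 1 (Polr1a) under the replicate block. The count of the 35 whose iCKO libraries all lay below CTR2 went from 1 to 0 with library sizes alone. Of the 35 the block changed no other call in mCKO, while Ddx5 became called, and calls over all genes went from 0 to 1839.

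With library sizes alone 32 of the 35 mCKO values were positive against 20 by TMM, so the sign of small mCKO values rests on the scaling. Of members followed one by one (in mCKO the 10 named by the rule, and Rrp12), signs turned for uncalled values only. With library sizes alone they were 0.013 for Polr1a in mCKO (0.0113 with the block), 0.0098 for Rrs1 in iCKO (0.0311 with the block), and in the difference -0.0562 for Nop10 and -0.0809 for Ubtf (-0.0456 and -0.1002 with the block, and -0.0255 for Rrs1). With library sizes and the block Ubtf in iCKO had 0.0191. For Nop10 in iCKO the value was -0.0138 with the block, -0.0175 with DESeq2 and with RLE factors, and -0.31 with replicate 3 left out of both groups. Leaving out 1 library gave ranges of -0.0004 to 0.0774 for the mCKO median, and in mCKO -0.0783 to 0.20 for Ncl, -0.0225 to 0.24 for Nop58, -0.18 to 0.0734 for Polr1a and -0.17 to 0.77 for Myc. For Nop10 in iCKO it gave -0.27 to 0.15. In the difference the ranges were -0.13 to 0.38 for Nop10, -0.31 to 0.0334 for Rrp1b, -0.0588 to 0.37 for Rrs1 and -0.17 to 0.15 for Ubtf. The cause was not tested. With 3 libraries a group, a p that misses the threshold does not show that levels were alike.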
